A study of Homo sapiens with 10 samples.

Results

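Glycolysis splits glucose into pyruvate in the cytosol, and pyruvate is then either reduced to lactate and exported or carried into mitochondria and converted to acetyl-CoA. Human embryonic stem cells in culture are known for a high rate of glycolysis with much of the pyruvate leaving as lactate. Hypoxia-inducible factors are known to raise the transcription of many of these genes, and the pyruvate dehydrogenase kinases are known to hold pyruvate out of the mitochondrial route by phosphorylating the pyruvate dehydrogenase complex.

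The genes described here are 33 enzymes, transporters and regulators of glycolysis and pyruvate metabolism, chosen by symbol from the 55841 gene identifiers of the count table. All 33 were matched and all 33 passed the filter on low counts, which left 23552 genes to test. RNA was sequenced from HES9, a line of human embryonic stem cells by its label, grown in mTESR1 medium on matrigel. The general population (5 libraries) was all cells without sorting, and HHH (5 libraries) was the cells sorted as high for each of GCTM-2, CD9 and EPCAM, 3 surface antigens of undifferentiated stem cells. The HHH cells thus also passed through a sort that the general cells did not, and the sort and the fraction cannot be told apart. Batch 1 held 2 general and 2 HHH libraries and batch 2 held 3 of each. The study's text names its cells WA09, and the deposit's design text mentions protein kinase C inhibitors that no label of these libraries carries. Neither point is resolved here. Nothing in the labels says that replicates came from separate cultures, so p-values measure the spread between these libraries, which may be technical. In these bulk libraries, fewer cells of a type and less RNA per cell cannot be told apart.

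Total counts were 47242595 to 78503395 per library, and 3 counts stood for 0.0460 to 0.0687 CPM (counts scaled by library size and TMM factor), a floor that covers counting error only. The lowest count of any of the 33 genes in a library was 62. The 10 stem cell markers listed, POU5F1, NANOG and SOX2 among them, all exceeded 1 CPM in at least 1 library. Their summed level was 4876 to 5371 CPM in general and 4769 to 4823 CPM in HHH of batch 1, and 6192 to 6860 and 5767 to 6167 CPM in batch 2, so HHH lay lower without overlap in both. Among them edgeR called NANOG (log2 fold change 0.44) and EPCAM (0.41, an antigen of the sort) higher in HHH and PODXL (-0.40) and SOX2 (-0.26, not called with the replicate block, adjusted p = 0.0773) lower. CD9, also an antigen of the sort, was not called. PODXL alone stood at 1219 to 1284 CPM in general and 744 to 907 CPM in HHH of batch 2. The median log2 fold change of the 10 was 0.0512, and at an unadjusted p under 0.05 in edgeR 4 were higher and 4 lower. The lower sums thus do not show that stem cell markers as a set were lower. Of 12 neural markers, 5 stayed below 1 CPM in every library, and their summed level in batch 2 was 243 to 288 CPM in general and 136 to 194 CPM in HHH. In batch 1 it was 211 to 236 CPM in general and 235 to 250 CPM in HHH. Of the 8 neural markers tested, edgeR called 5 lower in HHH (LHX5, HESX1, ZIC1, DLK1 and SOX1) and none higher, while DESeq2 also called 1, SIX6, higher, which had an unadjusted p under 0.05 in edgeR and was named after its values were seen. The log2 fold changes of those 5 were below 0 in both batches, at -4.23 to -0.51 in batch 1 and -6.44 to -1.36 in batch 2. In HHH, LHX5 (0.052 to 0.37 CPM), ZIC1 (0.086 to 0.28), DLK1 (0.12 to 0.30) and SOX1 (0.086 to 0.25) lay near the floor. The size of their folds is thus uncertain, and SOX1 stayed below 1 CPM in every library. HESX1 stood at 3.19 to 5.98 CPM in HHH. None of the 5 exceeded 18.0 CPM in a library (HESX1 in general batch 1 replicate 1), so the neural sums rest largely on markers that were not called. Of the markers of mesoderm and endoderm, 8 of 10 were below 1 CPM in every library. The 8 fibroblast markers, of which COL3A1, DCN, LUM and FAP were below 1 CPM in every library, summed to 259.9 to 272.3 CPM in general and 302.3 to 308.4 CPM in HHH of batch 1. In batch 2 they summed to 270.6 to 279.1 and 289.9 to 343.6 CPM, so HHH lay higher without overlap in both, with THY1 called higher (0.61) and COL1A1 lower (-0.94). THY1 alone stood at 135 and 157 CPM in general and 199 and 189 CPM in HHH of batch 1. Its batch 2 levels were 138, 140 and 137 CPM in general and 245, 239 and 210 CPM in HHH. The higher sums thus rest largely on THY1 and do not show that fibroblast markers as a set were higher. The 11 genes listed for dissociation and stress summed to 182 to 185 CPM in general and 234 to 237 CPM in HHH of batch 1, and to 191 to 197 and 175 to 219 CPM in batch 2, with IER3 called higher (0.74) and EGR1 lower (-1.19). The part of these markers in the results below was not tested.

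The question put to these genes was whether the HHH fraction differed from the general population in the machinery of glucose use. At the RNA level the differences were small. SLC2A1, which encodes the glucose transporter GLUT1, was higher in HHH in the reported fit, which does not pair libraries, but did not pass with replicates paired (adjusted p = 0.0827 by edgeR). ENO2, which encodes a neuronal form of enolase, was lower in both fits. SLC2A1 was thus 1 gene called higher (1.94% of all tested genes were) and ENO2 1 called lower (3.89%). The other 31 genes did not pass an adjusted p of 0.05 in edgeR's quasi-likelihood F test with batch as a term. That made 2 of 33, or 6.06%, against 5.83% of all tested genes, so the share was near the background. With the replicate block, which pairs libraries of the same number and batch, 1 gene was higher (MPC1, against 2.32% of all genes) and 1 lower (ENO2, against 4.63%), or 6.06% against 6.95%. In batch 1 only replicate 2 is in both populations. General replicate 1 and HHH replicate 3 of batch 1 thus had no partner and added nothing to that comparison. Neither fold in the reported fit exceeded 1.5, while 2.98% of all tested genes passed with a fold over 1.5. The log2 fold changes of the 33 genes ran from -0.37 to 0.44 with a median of 0.045, beside a median of 0.0156 over all tested genes. Of the 33, 20 lay above 0 (60.6%, against 53.0% of all tested genes). At an unadjusted p under 0.05 there were 13 genes (8 higher and 5 lower in HHH), 39.4% against 20.9% of all tested genes.

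**Figure D1:**
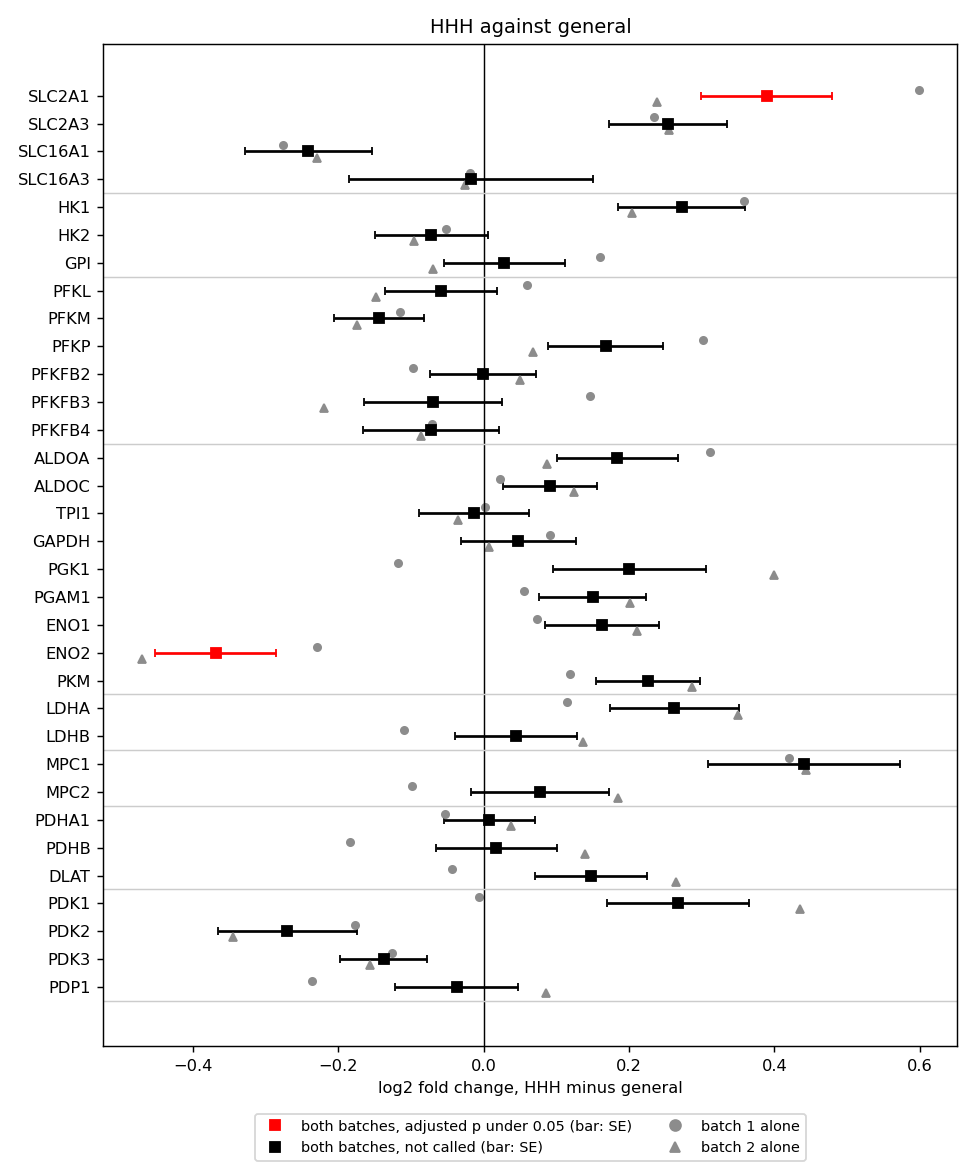
Log2 fold change of HHH over general (horizontal axis) for each of the 33 genes (rows, ordered by role and split by grey lines). Squares are the fit over both batches with SE bars, red where the adjusted p is under 0.05, and grey circles and triangles are batch 1 and batch 2 alone. SLC2A1 at 0.39 and ENO2 at -0.37 are the red squares, and most others lie within 0.3 of 0.

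Glucose enters the cell through SLC2A1 and SLC2A3 (GLUT3). SLC2A1 (ENSG00000117394) stood at 217 and 262 CPM in the general libraries of batch 1 and at 365 and 362 CPM in HHH. In batch 2 the general libraries had 280, 308 and 306 CPM and the HHH libraries 387, 349 and 324 CPM. Every HHH library was above every general library. The log2 fold change was 0.39 (SE 0.0905, adjusted p = 0.0198 by edgeR), and the mean went from 274 ± 37.5 CPM in general to 357 ± 22.9 CPM in HHH (SD, n = 5). It was 0.60 in batch 1 and 0.24 in batch 2, and the adjusted p for the difference between the batches was 0.233. With replicate numbers as a block it was 0.30 and did not pass (adjusted p = 0.0827). Of 10 fits with 1 library left out, it failed in 3, which lacked HHH batch 1 replicate 2 (adjusted p = 0.0537), HHH batch 2 replicate 1 (0.0648) or general batch 2 replicate 1 (0.0554).

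SLC2A3 (ENSG00000059804) stood at 784 and 662 CPM in general and 843 and 866 CPM in HHH of batch 1. Batch 2 gave 576, 642 and 549 CPM in general and 749, 730 and 640 CPM in HHH. The groups separated in batch 1 and overlapped in batch 2. The log2 fold change was 0.25 (SE 0.0810, adjusted p = 0.0849). SLC16A1, the monocarboxylate transporter MCT1 that carries lactate and pyruvate across the plasma membrane, stood at 1363 and 1196 CPM in general and 1104 and 1020 CPM in HHH of batch 1. Its batch 2 libraries overlapped, at 959, 1149 and 857 CPM in general and 848, 861 and 833 CPM in HHH. Its log2 fold change was -0.24 (SE 0.0872, adjusted p = 0.129). SLC16A3, the lactate exporter MCT4, had a fitted difference of -0.018 on the log2 scale (SE 0.168, adjusted p = 0.967) and differed between batches as described below.

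The promoters of the genes the results turn on are shown with a motif that is the core of the sites bound by hypoxia-inducible factors, ACGTG on either strand. For 29 of the 33 genes the RefSeq table (GRCh38.p14) held a start site, and SLC2A3, PFKFB2, SLC16A1 and PDP1 are named only. The 250 bases before the start are printed 5′ to 3′ on the gene's strand, with ACGTG and its complement in capitals. SLC2A1 (chr1:42958869-42959118, minus strand) and ENO2 (chr12:6914330-6914579, plus strand) each had 1 start in the table. LDHA (chr11:18394313-18394562, plus strand, the first of its 2 starts) is shown as a member that differed strongly between batches.
SLC2A1: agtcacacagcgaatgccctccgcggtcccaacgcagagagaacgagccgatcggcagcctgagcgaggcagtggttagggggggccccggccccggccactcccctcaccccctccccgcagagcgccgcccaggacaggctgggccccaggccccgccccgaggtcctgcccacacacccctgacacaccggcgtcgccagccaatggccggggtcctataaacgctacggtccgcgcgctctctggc
ENO2: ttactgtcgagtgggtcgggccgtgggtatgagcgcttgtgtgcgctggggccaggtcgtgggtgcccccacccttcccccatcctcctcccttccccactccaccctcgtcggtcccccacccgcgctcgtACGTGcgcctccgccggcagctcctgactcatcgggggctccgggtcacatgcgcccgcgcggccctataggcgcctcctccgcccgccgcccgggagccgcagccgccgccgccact
LDHA: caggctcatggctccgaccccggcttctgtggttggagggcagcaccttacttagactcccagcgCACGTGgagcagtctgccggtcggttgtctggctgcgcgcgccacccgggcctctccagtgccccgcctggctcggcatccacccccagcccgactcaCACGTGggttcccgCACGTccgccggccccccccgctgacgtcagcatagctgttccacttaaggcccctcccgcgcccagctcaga
The SLC2A1 window held no match, that of ENO2 held 1, and that of LDHA held 3 separate runs of capitals. The palindrome CACGTG holds ACGTG on both strands, which makes 5 matches for LDHA. Of the 2 LDHA windows only 1, the one printed, held a match. Among other members that differed strongly between batches, SLC16A3 had a match in 1 of 5 windows, PFKFB3 in 1 of 2 and PFKFB4 in 0 of 1. ACGTG was in 18.5% of all 35116 windows of this length, and in 35.6% of the 59 windows of these genes. By gene, 18 of 29 had it in at least 1 window, against 21.7% of 27305 genes, but members with several starts had more windows in which to match. These are matches of letters and were not tested as sites.

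Hexokinases trap glucose in the cell as glucose 6-phosphate, and GPI turns that into fructose 6-phosphate. HK1 (ENSG00000156515) stood at 193 and 198 CPM in general and 262 and 241 CPM in HHH of batch 1. In batch 2 the levels were 270, 276 and 237 CPM in general and 341, 312 and 255 CPM in HHH. The batch 2 groups overlapped, since the lowest HHH library lay below 2 of the general libraries. Its log2 fold change was 0.27 (SE 0.0871, adjusted p = 0.0854), and it passed without HHH batch 2 replicate 3 (0.34, adjusted p = 0.0119). HK2, the form that hypoxia is known to raise, averaged 114 ± 12.1 CPM in general against 109 ± 14.8 CPM in HHH (SD, n = 5). GPI had 313 ± 67.9 CPM and 316 ± 48.3 CPM, and its adjusted p was 0.883.

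Phosphofructokinase is the main control point of glycolysis, and the PFKFB enzymes make and break its activator fructose 2,6-bisphosphate. None of these 6 genes passed in edgeR's test (adjusted p from 0.206 to 0.995) or with DESeq2, and 1, PFKM, had an unadjusted p under 0.05. PFKM, the muscle form, stood at 110 and 109 CPM in general and 98.2 and 105 CPM in HHH of batch 1, and at 128, 129 and 121 CPM against 111, 117 and 108 CPM in batch 2. Every HHH library lay below the general libraries of its batch, with a log2 fold change of -0.14 (SE 0.0624). PFKP, the platelet form, had a log2 fold change of 0.17 (SE 0.0792), and PFKL, the liver form, -0.058 (SE 0.0775). PFKFB3 was 0.15 in batch 1 and -0.22 in batch 2, and the adjusted p for that difference was 0.253.

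The enzymes from aldolase to pyruvate kinase carry 3-carbon sugars to pyruvate and make the ATP of the pathway. Of these 9 genes, 7 had a log2 fold change above 0 and 1, ENO2, passed. ENO2 (ENSG00000111674) stood at 47.3 and 45.6 CPM in the general libraries of batch 1 and at 34.7 and 44.8 CPM in HHH. In batch 2 the general libraries had 73.1, 81.7 and 82.5 CPM and the HHH libraries 58.0, 60.0 and 54.2 CPM. Within each batch every HHH library was below every general library, by little in batch 1. The log2 fold change was -0.37 (SE 0.0832, adjusted p = 0.0169 by edgeR), with -0.23 in batch 1 and -0.47 in batch 2. The adjusted p for the difference between the batches was 0.413, and the replicate block gave an adjusted p of 0.0070. Of 10 fits with 1 library left out it failed in 5, which lacked HHH batch 1 replicate 2 (adjusted p = 0.050), HHH batch 2 replicate 1 (0.0574), HHH batch 2 replicate 2 (0.0507), general batch 2 replicate 2 (0.0509) or general batch 2 replicate 3 (0.0515). Since ENO2 is a neuronal enolase, the neural markers given above belong beside it. Their sum, which rests largely on markers that were not called, was lower in HHH of batch 2 and not lower in HHH of batch 1. The 5 called neural markers had folds below 0 in both batches. The part of the neural markers in the result was not tested.

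The ubiquitous enolase ENO1 averaged 2040 ± 340 CPM in general against 2271 ± 262 CPM in HHH (SD, n = 5), a log2 difference of 0.16 (SE 0.0785, adjusted p = 0.253). PKM, which encodes pyruvate kinase, stood at 800 and 829 CPM in general and 882 and 894 CPM in HHH of batch 1. The batch 2 levels were 888, 953 and 867 CPM in general and 1139, 1083 and 1097 CPM in HHH. The groups did not overlap in either batch, and the log2 fold change was 0.23 (SE 0.0718, adjusted p = 0.0837). PGK1, which makes the first ATP of the pathway, stood at 553 and 535 CPM in general and 535 and 472 CPM in HHH of batch 1. Its batch 2 levels were 519, 551 and 538 CPM in general and 679, 640 and 814 CPM in HHH. The HHH libraries thus lay below the general ones in batch 1, 1 of them by under 1 CPM, and above them in batch 2. The difference between the batches was 0.52 on the log2 scale and did not pass (adjusted p = 0.129), although DESeq2 (0.0249) and edgeR with no filter (0.0338) called it. GAPDH, the most abundant of the 33, averaged 2943 ± 218 CPM in general against 3047 ± 247 CPM in HHH, and TPI1 averaged 468 ± 48.1 CPM against 464 ± 46.4 CPM (SD, n = 5). ALDOC, the brain form of aldolase, averaged 63.6 ± 5.38 CPM against 67.6 ± 2.41 CPM (SD, n = 5), with an adjusted p of 0.453. Counts of annotated pseudogenes came to 33.7 to 40.7% of those of TPI1 and 13.8 to 23.1% of those of GAPDH, so the levels of both are uncertain. Adding those counts changed no call between the populations. Between the batches TPI1 lost its call (adjusted p = 0.0836) and GAPDH passed as lower in batch 2 (0.040).

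**Figure D2:**
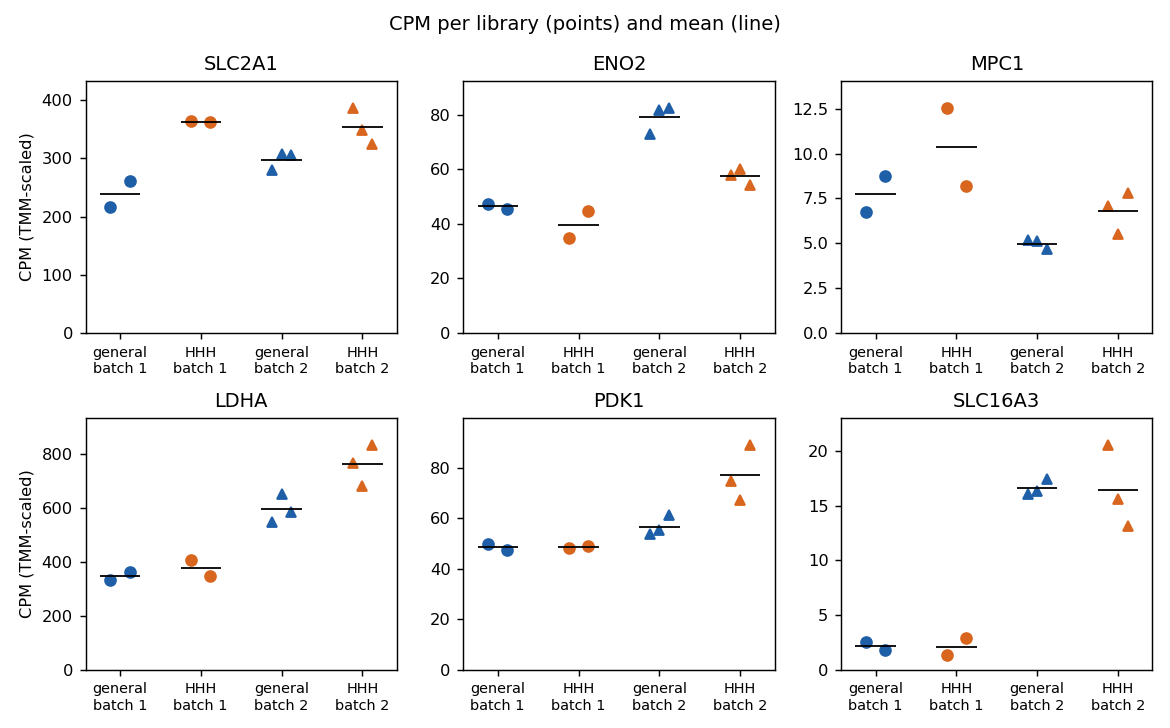
CPM of 6 genes in each library (points) with the mean of each population and batch (line), all axes from 0. General libraries are blue and HHH orange, circles are batch 1 and triangles batch 2. SLC2A1 is higher in HHH in both batches, ENO2 is lower in HHH in both, and SLC16A3 lies at 1.33 to 2.91 CPM in batch 1 and 13.1 to 20.6 CPM in batch 2.

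Lactate dehydrogenase interconverts pyruvate and lactate. LDHA (ENSG00000134333), the form that favours lactate, stood at 332 and 361 CPM in general and 405 and 348 CPM in HHH of batch 1. In batch 2 the general libraries gave 548, 653 and 583 CPM and the HHH libraries 768, 682 and 834 CPM. The groups overlapped in batch 1 and separated in batch 2. The log2 fold change was 0.26 (SE 0.0891, adjusted p = 0.105), and it passed in batch 2 alone (0.35, adjusted p = 0.0463) and without HHH batch 1 replicate 3 (0.32, adjusted p = 0.0367). LDHB, the heart form, averaged 1282 ± 182 CPM in general against 1314 ± 73.9 CPM in HHH (SD, n = 5).

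MPC1 and MPC2 form the carrier that takes pyruvate into mitochondria. MPC1 (ENSG00000060762) had the largest fitted fold of the 33. It stood at 6.73 and 8.74 CPM in general and 12.5 and 8.22 CPM in HHH of batch 1. In batch 2 it stood at 5.17, 5.11 and 4.69 CPM in general and 7.09, 5.53 and 7.83 CPM in HHH. The groups overlapped in batch 1 and separated in batch 2. The log2 fold change was 0.44 (SE 0.132, adjusted p = 0.0659), with 0.42 in batch 1 and 0.44 in batch 2, and with the replicate block it passed (0.46, adjusted p = 0.0386). Its partner MPC2 had a log2 fold change of 0.078 (SE 0.0949), and 21.8% of its exon bases are shared with DCAF6.

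The pyruvate dehydrogenase complex turns pyruvate into acetyl-CoA. Its subunit genes PDHA1, PDHB and DLAT had log2 fold changes of 0.0078, 0.017 and 0.15, with adjusted p from 0.294 to 0.960, and none had an unadjusted p under 0.05 or passed with DESeq2. PDK1, a kinase that switches the complex off, stood at 49.6 and 47.5 CPM in general and 48.2 and 48.9 CPM in HHH of batch 1. Batch 2 gave 53.5, 55.1 and 61.2 CPM in general and 74.7, 67.3 and 89.0 CPM in HHH. The groups overlapped in batch 1 and separated in batch 2, where it passed (0.44, adjusted p = 0.0172). Over both batches the log2 fold change was 0.27 (SE 0.0980, adjusted p = 0.135), and the adjusted p for the difference between the batches was 0.170. PDK2, a second kinase, stood at 12.6 and 12.1 CPM in general and 10.1 and 11.9 CPM in HHH of batch 1, and at 9.19, 9.83 and 10.5 CPM against 8.04, 8.68 and 6.61 CPM in batch 2. PDK2 shares 38.6% of its exon bases with SAMD14, and whether the counting used strand is not given in the sources used here. Its log2 fold change was -0.27 (SE 0.0960, adjusted p = 0.122), that of PDK3 -0.14 (SE 0.0601, adjusted p = 0.209) and that of PDP1, a phosphatase that switches the complex on again, -0.037 (SE 0.0846).

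HHH and general libraries did not overlap in either batch for 6 of the 33 genes (18.2%, against 9.35% of all tested genes). SLC2A1 and PKM were the 2 with HHH above (3.93% of all genes were), and PFKM, ENO2, PDK2 and PDK3 the 4 with HHH below (5.42%). In batch 2 alone, with 3 libraries of each, 4 genes passed as higher (PGK1, LDHA, PDK1 and MPC1, against 5.13% of all genes) and 1 as lower (ENO2, against 8.05%), together 15.2% against 13.2% of all genes tested there. In batch 1 alone, with 2 of each, edgeR called none of the 33 (0.573% of all genes), and 4 had an unadjusted p under 0.05. The sign of the fold was the same in both batches for 20 of the 33. For the difference between the batches none of the 33 passed in edgeR (0.777% of all genes did), with 0.129 as the lowest adjusted p. DESeq2 called 1, PGK1, and 7 had an unadjusted p under 0.05 in edgeR. The 5 genes whose log2 CPM within batches was most like that of ENO2 over the 10 libraries were PDK2 (r = 0.93), PFKM (0.89), PFKL (0.72), PDK3 (0.71) and HK2 (0.60), as a description over libraries that share their scaling. Only batch means were subtracted, so the difference between the populations stayed in. ENO2 was chosen as the gene with the smallest adjusted p for that difference, and all 5 had a log2 fold change below 0. A high r was thus partly set in advance and does not show that these genes vary together apart from it.

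**Figure D3:**
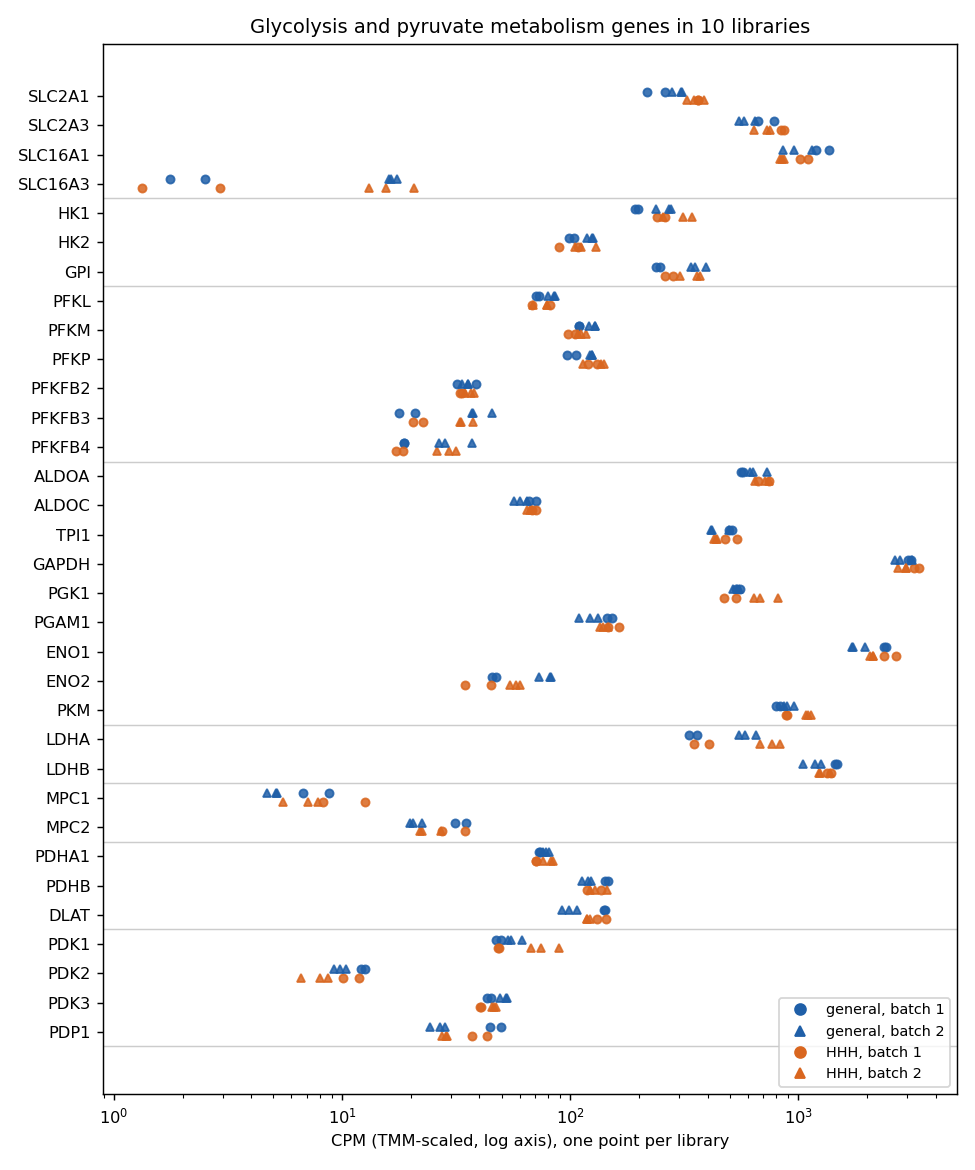
CPM (horizontal log axis) of the 33 genes (rows by role) in 10 libraries, 1 point each. Blue is general and orange HHH, circles are batch 1 and triangles batch 2. GAPDH is highest at 2651 to 3365 CPM, and for SLC16A3 the triangles stand well to the right of the circles.

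Per kilobase of exon (lengths from the merged exons of GENCODE 44), GAPDH had the highest level, at 1250 ± 94.4 CPM per kb (SD, n = 10). LDHB followed at 435 ± 44.2 and ENO1 at 413 ± 59.6 CPM per kb, 2 levels whose ranges over libraries overlapped. TPI1 and ALDOA both had 173 CPM per kb, SLC16A1 161, PKM 110 and PGK1 107 CPM per kb. SLC16A3 was lowest at 1.17 and PDK2 next at 1.82 CPM per kb. In the authors' log2 RPKM, which rest on other gene lengths, 3 genes moved by more than 3 places in this order, namely ALDOA, PDK1 and PDK3.

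Within families the shares are a description on the scale of CPM per kb. LDHB made up 82.6% of the lactate dehydrogenase pair on average, ENO1 96.7% of the enolase pair, ALDOA 87.2% of the aldolase pair and SLC16A1 99.2% of the monocarboxylate transporter pair. HK1 was 61.5 to 63.2% of the hexokinase pair in general and 65.8 to 71.7% in HHH of batch 1. In batch 2 it was 61.8 to 66.7% in general and 67.6 to 70.6% in HHH, so the HHH libraries lay higher in both batches. PFKP was 35.0 to 37.2% of the phosphofructokinases in general and 41.7 to 42.2% in HHH of batch 1, and 37.0 to 37.6% and 39.3 to 42.7% in batch 2. PDK1 was 40.6 to 40.7% of the kinases in general and 42.4 to 43.7% in HHH of batch 1, and 43.5 to 46.6% and 52.0 to 60.5% in batch 2. The ENO2 share of enolase was 4.84 to 5.52% in general and 3.02 to 3.44% in HHH of batch 2, and overlapped in batch 1. Shares depend on the gene lengths used. From the authors' RPKM the mean shares were 53.5% for PDK3, 40.6% for PDK1 and 5.885% for PDK2. Here they were 31.3, 46.9 and 21.8%, so the leading kinase differs. PFKP had 51.4% there and 39.15% here, while LDHB had 84.7% there.

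**Figure D4:**
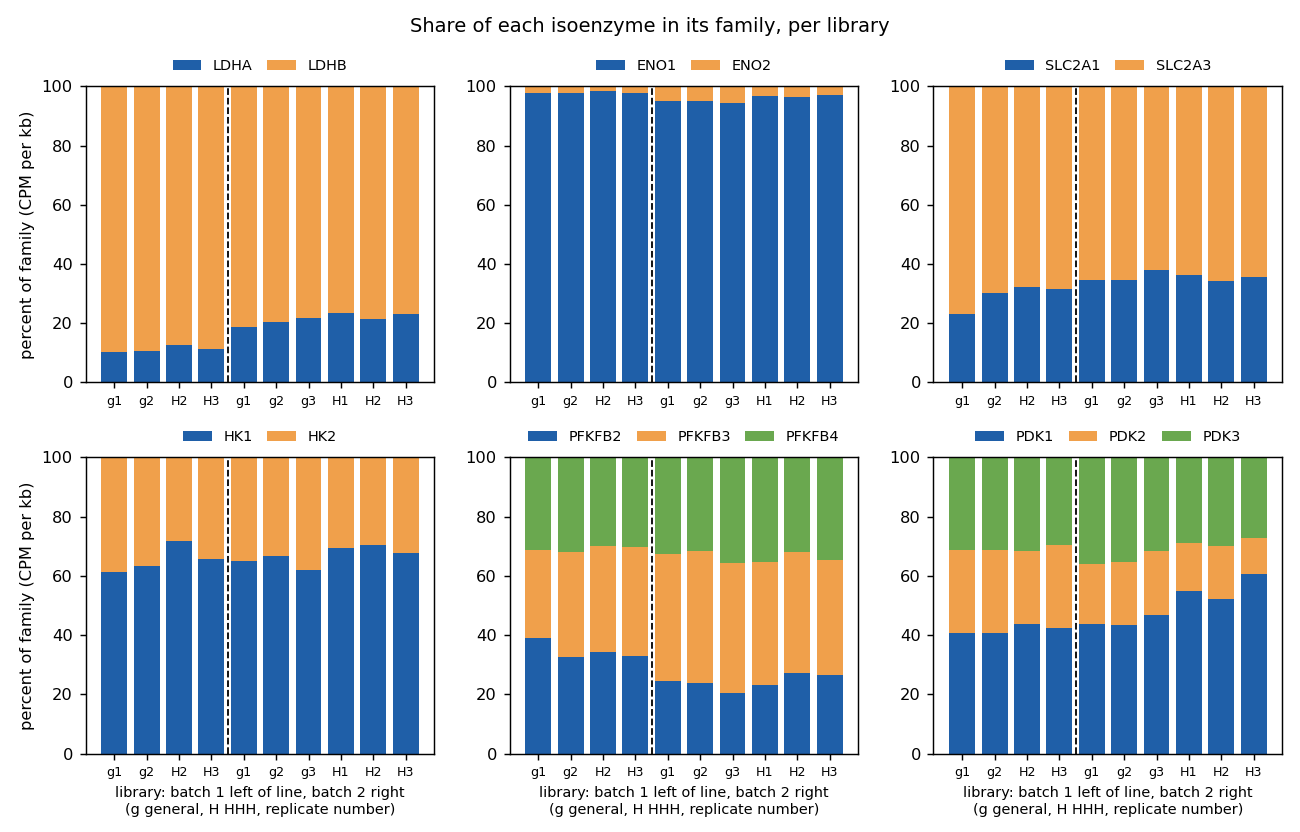
Share of each isoenzyme (percent of its family's CPM per kb, stacked to 100) in 10 libraries for 6 families, with batch 1 left of the dashed line and batch 2 right of it, g for general and H for HHH with the replicate number. The LDHA share is 10.2 to 12.6% in batch 1 and 18.7 to 23.6% in batch 2, and the PDK1 share is highest in the HHH libraries of batch 2.

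More of the 33 genes passed between the batches than between the populations. There were 22 (66.7%), 12 higher (against 24% of all genes) and 10 lower (against 23.9%) in batch 2, together against 47.9% of all tested genes. With a fold over 1.5 there were 5 higher (against 12.5% of all genes) and 2 lower (against 8.92%), together 21.2% against 21.5% of all tested genes, which is near the background. SLC16A3 (ENSG00000141526) stood at 2.50 and 1.76 CPM in general and 1.33 and 2.91 CPM in HHH of batch 1. Its levels in batch 2 were 16.1, 16.4 and 17.4 CPM in general and 20.6, 15.6 and 13.1 CPM in HHH. The batches did not overlap and the populations did, and batch 2 over batch 1 was 2.96 on the log2 scale (SE 0.192, adjusted p = 5.3e-08). LDHA followed at 0.90 (SE 0.0934, adjusted p = 4.8e-06), PFKFB3 at 0.86, PFKFB4 at 0.71 and ENO2 at 0.65. GPI, PDK1, HK1, HK2, PKM, PDK3 and PFKM were higher in batch 2 by 0.46 to 0.17. The fold of these 12 stayed above 0 in each of the 19 alternatives fitted for the batch term, but not all kept their call. PFKM passed in 11 of the 19 and failed with no filter (adjusted p = 0.143) and without any 1 of general batch 1 replicates 1 and 2, HHH batch 1 replicate 2, HHH batch 2 replicates 1 and 2 and general batch 2 replicates 1 and 2. HK2 passed in 17 and failed without general batch 1 replicate 2 (0.058) or HHH batch 1 replicate 2 (0.0766). PKM failed without HHH batch 1 replicate 2 (0.069) and PDK3 with no filter (0.0697).

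PDP1 (-0.67), MPC1 (-0.62), MPC2 (-0.53), PDK2 (-0.41), DLAT (-0.36), SLC16A1 (-0.35), ENO1 (-0.34), SLC2A3 (-0.29), PGAM1 (-0.22) and TPI1 (-0.21) were lower in batch 2 with TMM scaling. Scaled by library size only, where the median of all genes moved from 0.0035 to 0.338, 22 genes were higher and 1 (PDP1) lower, and the sign of SLC2A3, PGAM1 and TPI1 turned. TPI1 passed in 7 of the 19 alternatives, and with 1 library left out it passed only without HHH batch 1 replicate 3 or general batch 2 replicate 2. PGAM1 passed in 11, and failed without any 1 of general batch 1 replicate 2, HHH batch 1 replicate 2, HHH batch 2 replicate 2 and general batch 2 replicates 1 and 3. The other 8 passed in at least 18. The batches also differed in small nuclear and nucleolar RNAs, which took 2.71 to 4.97% of counts in batch 1 and 0.418 to 0.727% in batch 2. Identifiers without a match in GENCODE 44 took 16.3 to 20.3% in batch 1 and 7.44 to 10.6% in batch 2. Their part in the result was not tested, and the labels do not say what a batch was.

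**Figure D5:**
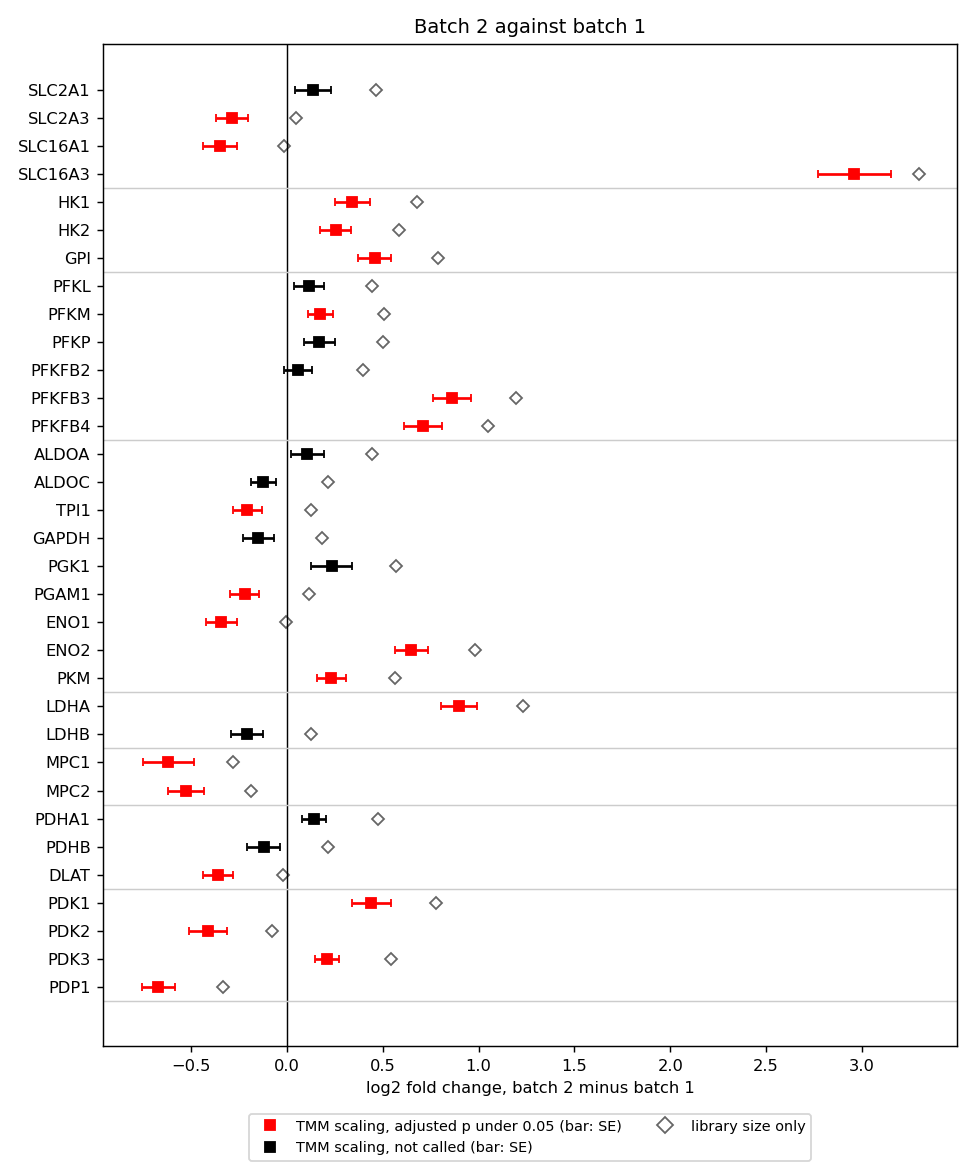
Log2 fold change of batch 2 over batch 1 (horizontal axis) for the 33 genes (rows by role). Squares with SE bars use TMM scaling, red where the adjusted p is under 0.05, and open diamonds use library size only. SLC16A3 lies at 2.96, and every diamond lies to the right of its square.

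Few other genes of these routes passed between the populations. Of 48 other glycolysis and pyruvate genes 40 were tested, with a median log2 fold change of 0.0546, and 1 was higher in HHH and 2 lower. ME1, the cytosolic malic enzyme, was higher (0.54, SE 0.0924, adjusted p = 0.0027), from 11.3 to 16.2 CPM in the means. LDHD, the mitochondrial D-lactate dehydrogenase, was lower (-1.73, SE 0.157, adjusted p = 1.1e-05), from 8.38 to 2.29 CPM. SLC2A12, a further glucose transporter, was lower (-0.39, SE 0.0978, adjusted p = 0.0294). Of 16 pentose phosphate and serine genes tested, PSAT1, an enzyme of serine synthesis, was higher (0.35, SE 0.0880, adjusted p = 0.0299) and none lower in edgeR or DESeq2 or at an unadjusted p under 0.05, with a median of 0.125. Of 22 genes of the TCA cycle none passed in edgeR or in DESeq2, 3 had an unadjusted p under 0.05, all higher, and their median was 0.0769.

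In a list of 31 genes of the hypoxia-inducible factor pathway outside glycolysis, 30 were matched and tested. Between the populations 1 was higher in HHH, ADM, which encodes the vessel-dilating peptide adrenomedullin (0.51, SE 0.0784, adjusted p = 0.0013), none was lower (6 at an unadjusted p under 0.05, and 1 with DESeq2), and the median was -0.0564. Between the batches 24 of the 30 were higher and 1 lower in batch 2, against 24% and 23.9% of all tested genes, with a median of 0.614. With library size only 28 were higher and none lower. BNIP3, a mitophagy receptor, was named after its values were seen and stood at 8.10 CPM on average in batch 1 and 45.8 CPM in batch 2 (2.49, adjusted p = 4.7e-09). HIF1A itself, which encodes the oxygen-regulated subunit, was named likewise and its RNA stood at 269 and 267 CPM. The cause of the difference between the batches in this list was not tested, and the labels do not say what a batch was. Of the 12 glycolysis and pyruvate genes that were higher in batch 2, 9 had ACGTG in at least 1 promoter window, and of the other 17 genes with a window 9 had it. The number of windows differed between genes, from 1 for ENO2 to 7 for HK1 and for PFKM. More windows give more places to match, so these counts by gene do not compare the groups of genes.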

How the data were processed

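RNA was measured by TruSeq RNA sequencing in 10 libraries, grouped by their titles. The authors deposited whole counts per Ensembl gene, without normalization, and log2 values (a score) after TMM scaling and conversion to RPKM. The submitters' processing notes name GRCh37, CASAVA 1.8.2, R 3.2.2 and limma 3.26.9, and the aligner and counter are not given in the sources used here. In the log2 values the batch means of each gene agreed to within 9.2e-14, so they had been corrected for batch and served only as an alternative. How fragments of overlapping genes or pseudogene copies were counted, which could raise or lower counts, is not given there.

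Symbols came from GENCODE 44 (88.5% of identifiers matched), which is GRCh38, so no gene coordinates are given. Genes were kept by filterByExpr with a minimum count of 10 and scaled by TMM. The test was edgeR 4.0.16 (quasi-likelihood, R 4.3.3), fitted to all 10 libraries with terms for batch and population, two-sided, with Benjamini-Hochberg adjustment over 23552 genes and calls at an adjusted p under 0.05. Batch and interaction terms were tested likewise. A standard error was the log2 fold change divided by the square root of F. Scripts were tested on simulated data. Shares of isoenzymes were not tested.

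In batch 2, same-numbered libraries deviated together from their group means (r = 0.239, 0.143 and 0.113). With 2 libraries of each population in batch 1, r could only be 0.113 or -0.113. There the same-numbered pair had 0.113, but so did general replicate 1 with HHH replicate 3, so batch 1 cannot decide the pairing. The numbers, which come from the titles, were taken to pair the libraries in the replicate block only. The reported fit had no term for them, and the replicate block is given where it changes a call. No 2 libraries agreed within sampling noise (chi-square 5.77 to 48.7 times its degrees of freedom). Alternatives were scalings, filters, terms for batch or block, DESeq2 1.42.0, limma 3.58.1 on the deposited values, GC correction (a spline with 5 degrees of freedom), pseudogene counts added, small RNAs left out, single batches and leaving out single libraries. Centring of the deposited values was chosen after seeing the data. The 33 genes are all named, and of the other lists those with an adjusted p under 0.05 in edgeR, at most 6 for each list and direction. The genes and lists were chosen with earlier results of these data known.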

Additional observations from a re-analysis of the deposited data

How the results depend on the processing

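Over 26 alternatives, 820 of 858 values of single genes in HHH against general stayed on the same side of the threshold, 16 no longer passed, 22 newly passed (8 genes) and none of the called values changed sign. Most values belong to genes that were not called, which counted as kept while uncalled, whatever their sign. PFKFB2 kept its sign in 14 of the 26 and PDHA1 in 16. Of the called genes, SLC2A1 passed in 17 of the 26 and ENO2 in 19. The members called higher in HHH were 1 in the reported fit. They were 0 with no batch term, with library size only, in batch 1 alone, with limma on the deposited log2 values and with a fold over 1.5, 3 with the GC trend removed, 4 with no filter, in batch 2 alone and with GC trend and replicate block together, and 5 with DESeq2. Calls over all genes moved with the setting too, from 24 to 1233 higher, the latter (5.13%) in batch 2 alone. These counts alone therefore do not set the members apart from other genes. Members called lower were 1, and 0 with no batch term, in batch 1 alone and with a fold over 1.5, and 2 with library size only. Leaving out 1 library gave 0 to 3 higher and 0 to 1 lower. Members between batches were 12 higher and 10 lower, and 22 and 1 with library size only. The interaction was 0 members, and 1 (PGK1) with no filter and with DESeq2. The members' median of 0.045 was -0.092 with limma on the deposited log2 values, where that of all genes was -0.126. The cause of these changes was not tested.

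With the replicate block as the paired fit, 1 of the members was higher (MPC1) and 1 lower (ENO2), SLC2A1 no longer passed (adjusted p = 0.0827) and no other member changed its call. Batch 1 entered that fit only through replicate 2, the number that both populations have there. Without a batch term SLC2A1 (adjusted p = 0.193) and ENO2 (0.619) did not pass. Counts of all genes ran from 24 to 1233 higher and from 67 to 1933 lower over the alternatives, beside 458 and 915. Length-scaled levels of 11 genes moved by more than 1 SD between exon lengths of the annotation and the deposited RPKM. SLC16A3, MPC1 and PDK2 had the fewest counts (as low as 62, 281 and 374 in a library), and batch 1 has 2 libraries of each population.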
